A study of Mus musculus with 24 samples.

Results

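The comparison set stromal cells with deficient beta-catenin at E13.5 (E, embryonic day) against mutant cells of that kind at E12.5, so it followed 1 embryonic day of maturation inside the mutant, gene by gene. It rested on 6 of the 24 libraries of the series, taken by their column labels, with 3 libraries at each stage, and on all 13803 genes of the table. The cells carried β-catSD, the label for deficient beta-catenin, here written SD, on the C57BL/6 strain. All groups, controls included, came from embryonic mouse kidneys that were dissociated with Collagenase and sorted for green fluorescence of FoxD1Cre-eGFP, a Cre and green fluorescent protein driven by the stromal gene Foxd1. RNA was sequenced on an Illumina HiSeq. The nearest reference was wild-type C57BL/6 stroma at E13.5 and E12.5, again 3 libraries each. The other 12 libraries held β-catSO stroma, with stabilised beta-catenin and here written SO, and wild-type stroma, both of the CD1 strain and both at E13.5 and E12.5. Neither the alleles nor the embryos or litters behind each library are named in the sources used, beyond a statement of 3 kidneys for each genotype. The p-values below therefore reflect library-to-library spread alone, and how much of it lies between embryos is not known.

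Beta-catenin carries the canonical Wnt signal from the membrane to the nucleus, where it works with TCF and LEF factors to switch on target genes, among them secreted antagonists that feed back on the pathway. In the embryonic kidney, cells that express Foxd1 surround the nephron progenitors and give rise to the interstitial stroma, the pericytes, the mesangium and the vascular smooth muscle. As the organ grows, these progenitors acquire cortical, medullary and mural characters, and they send signals by retinoic acid, Hedgehog, TGF-beta and guidance molecules.

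The libraries held 6978339 to 7526034 reads at SD E13.5 and 6953288 to 15496741 reads at SD E12.5, and 7084482 to 9197985 reads at wild-type E13.5 and 10118195 to 12049222 reads at wild-type E12.5. Foxd1 itself lay at 8.95, 8.74 and 8.92 log2 CPM (CPM, reads scaled to the size of the library) in SD E13.5 and at 9.27, 8.98 and 8.90 log2 CPM in SD E12.5, and so was expressed in all 6 libraries. The 16 cortical and progenitor stroma markers summed to 7949 to 8319 CPM at SD E13.5 and 8183 to 8325 CPM at SD E12.5. Ctnnb1, the gene of beta-catenin, had 10.34, 10.36 and 10.38 log2 CPM at SD E13.5 and 10.66, 10.47 and 10.36 log2 CPM at SD E12.5. Its stage change in SD was -0.13 ± 0.06 log2 (standard error) and did not pass the test (adjusted p = 0.439). The site of the deletion in the gene is unknown here, so these reads do not check it, and exons of Ulk4 overlap Ctnnb1 on the other strand while the strand of counting is unknown too. Replicate 1 of SD E12.5 had the most reads of the 6 and stood apart on the first principal component (-34.5, with the other 5 between -10.4 and 27.7). Replicate 3 of SD E12.5 had Xist at -1.45 log2 CPM with Y-linked transcripts present, so it held male RNA without female RNA, while the other 5 SD libraries held transcripts of both sexes (Xist at 6.25 to 10.1 log2 CPM). Replicate 3 of wild-type E12.5 held 4617 CPM of 8 liver transcripts, against 15.6 to 18.4 CPM in the other 2 libraries of its group, and 910 CPM of macrophage transcripts, against 139 and 158 CPM.

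With stage, 38 genes differed in SD stroma at a Benjamini-Hochberg adjusted p under 0.05 in limma, 12 higher and 26 lower at E13.5. That was 0.275% of the 13803 genes tested, 0.0869% upward and 0.188% downward, and 1577 genes had an unadjusted p under 0.05. By size, 4 of the rises and 10 of the falls reached 2-fold. All 38 had E13.5 libraries that lay wholly beyond the E12.5 libraries, which was true of 2188 genes in all (15.9%). The median stage change of all genes was -0.003 log2. The other stage comparisons, which share no library with it, called more genes: 546 in C57BL/6 wild-type (3.96%, 2.08% upward and 1.88% downward), 980 in SO (7.1%, 3.01% and 4.09%) and 748 in CD1 wild-type (5.42%, 2.42% and 3%). The replicate numbers deviated together between the SD stages, and with the number as a block within the SD libraries 156 genes were called, 52 higher and 104 lower, all 38 among them (1.13% of all genes, 0.377% and 0.753%). That block was added after seeing the data, and the labels state no pairing of the stages. The block planned for every genotype and strain called 48 genes, 24 of the 38 among them, and 14 named below lost their calls there at adjusted p of 0.0525 to 0.0967, namely Rerg, Cenpn, Pdgfrb, Ncaph, Nrep, Sema6c, Epha4, Frmd4b, Adamts17, Sulf1, Grin3a, Cx3cr1, C1qa and Siglec1. With the mean levels of the macrophage, endothelial and erythroid lists as covariates 54 were called, 13 of the 38 among them. The count rested on single libraries: 0 genes were called without SD E12.5 replicate 1 (940 at an unadjusted p under 0.05), 4 without SD E13.5 replicate 3 and 8 without SD E13.5 replicate 1, against 119 without SD E13.5 replicate 2 and 154 without SD E12.5 replicate 3. Every gene named below as risen or fallen in SD lost its call without SD E12.5 replicate 1, and Gm8615 was the 1 gene of the 38 that kept it without SD E13.5 replicate 3. Without SD E13.5 replicate 1, 7 kept it, namely Heyl, Gucy1b1, Mmp11, Dkk1, Zeb2, Pitx1 and Tmem181c-ps. The direction of the change held for all 38 genes in the 681 combinations of gene and alternative computed. Since the stages of all 38 did not overlap, leaving out or reweighting libraries could not turn a sign. The signs in those combinations were fixed beforehand and add no support. The fit with covariates could have turned a sign, and it turned 0 of the 38.

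The 4 rises past 2-fold were those of a secreted Wnt antagonist, a Notch target and both subunits of the nitric oxide receptor. Dkk1, which blocks Wnt co-receptors at the cell surface, had 6.42, 6.11 and 6.82 log2 CPM at SD E13.5, against 4.61, 5.34 and 5.28 log2 CPM at SD E12.5. Every E13.5 library lay above every E12.5 library. The rise was 1.37 ± 0.21 log2 (standard error), or 2.59-fold, with an adjusted p of 0.0123, and it was the largest among the 12 called rises. Wild-type C57BL/6 stroma rose by 1.39 log2 (adjusted p = 0.00144), and the difference between the 2 changes was -0.01 log2 (95% interval -0.64 to 0.62). In SO and CD1 wild-type the changes of 0.58 and 0.36 log2 did not pass. Axin2, a negative feedback regulator, had 3.89, 4.004 and 3.48 log2 CPM at SD E13.5 and 3.88, 3.82 and 3.30 log2 CPM at SD E12.5, a change of 0.13 ± 0.15 log2 (adjusted p = 0.852) whose sign turned in 2 of the alternatives. Lef1, a nuclear partner of beta-catenin, had 11, 24 and 11 reads at SD E13.5 and 79, 49 and 6 reads at SD E12.5, with overlapping levels and an adjusted p of 0.666. Of 19 measured Wnt target genes, 1 rose and 0 fell in SD, while 2 rose in wild-type, and the median change was 0.20 log2 in SD. Over all genes 0.0869% rose and 0.188% fell in SD, and 2.08% rose and 1.88% fell in C57BL/6 wild-type. The same shares belong beside the list counts below that are given without the block. Cyclin D1, Ccnd1, another member, had a change of 0.62 log2 that was called with the replicate block and not without it (adjusted p = 0.0638 without it and 0.0116 with it). Lgr4, a receptor for R-spondins, which enhance Wnt signalling, is not in that list and fell by 0.50 ± 0.10 log2 (adjusted p = 0.0348), having been named after its values were seen. Its levels were 5.80, 6.27 and 5.91 log2 CPM at SD E13.5 and 6.55, 6.58 and 6.35 log2 CPM at SD E12.5.

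Gucy1a1 and Gucy1b1 encode the alpha-1 and beta-1 subunits of soluble guanylyl cyclase, which makes cyclic GMP when it binds nitric oxide and is known in pericytes and smooth muscle. Gucy1b1 had 5.46, 5.23 and 5.86 log2 CPM at SD E13.5 and 3.70, 4.12 and 4.68 log2 CPM at SD E12.5. Gucy1a1 had 5.26, 4.78 and 5.81 log2 CPM at SD E13.5 and 3.80, 4.31 and 4.44 log2 CPM at SD E12.5. In both, replicate 3 was the highest of its stage and no E12.5 library reached an E13.5 library. Gucy1b1 rose by 1.35 ± 0.20 log2 (adjusted p = 0.0123) and Gucy1a1 by 1.10 ± 0.20 log2 (adjusted p = 0.022). In wild-type stroma they rose too, by 0.88 log2 (adjusted p = 0.0193) and 0.82 log2 (adjusted p = 0.0256). The 2 genes are neighbours on the minus strand of chromosome 3 of GRCm38 in GENCODE M21, Gucy1a1 at chr3:82092427-82145789 and Gucy1b1 at chr3:82032006-82074689, with 17.7 kb and 0 protein-coding genes between them. Reads of Gucy1a1 may include Mir7010, whose exon overlaps it on the same strand.

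The promoters of these 3 risers follow, since the pair moved together and Dkk1 led the list; they are the 250 bases upstream of the start from RefSeq (GRCm38.p6). All 3 lie on the minus strand and are given 5′ to 3′, Gucy1a1 with 2 starts. Capitals mark 2 motifs, CTTTGA, a TCF/LEF core, and TGGGAA, an RBPJ core, on either strand, with no overlap between them.
Gucy1a1, chr3:82145651-82145900: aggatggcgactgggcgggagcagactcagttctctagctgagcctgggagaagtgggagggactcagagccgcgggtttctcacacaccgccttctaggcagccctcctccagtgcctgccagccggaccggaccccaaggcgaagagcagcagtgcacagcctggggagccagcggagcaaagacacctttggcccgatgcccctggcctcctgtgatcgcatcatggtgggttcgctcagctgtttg
Gucy1a1, second start, chr3:82145074-82145323: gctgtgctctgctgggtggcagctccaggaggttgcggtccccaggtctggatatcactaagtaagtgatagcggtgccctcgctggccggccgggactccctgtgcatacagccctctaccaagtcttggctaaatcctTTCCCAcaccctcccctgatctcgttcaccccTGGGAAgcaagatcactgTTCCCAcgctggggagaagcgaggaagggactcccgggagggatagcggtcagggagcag
Gucy1b1, chr3:82074712-82074961: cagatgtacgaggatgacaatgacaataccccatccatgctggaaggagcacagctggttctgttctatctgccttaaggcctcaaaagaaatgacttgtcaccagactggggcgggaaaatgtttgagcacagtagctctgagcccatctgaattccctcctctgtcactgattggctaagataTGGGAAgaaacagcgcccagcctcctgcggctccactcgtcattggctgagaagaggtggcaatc
Dkk1, chr19:30549497-30549746: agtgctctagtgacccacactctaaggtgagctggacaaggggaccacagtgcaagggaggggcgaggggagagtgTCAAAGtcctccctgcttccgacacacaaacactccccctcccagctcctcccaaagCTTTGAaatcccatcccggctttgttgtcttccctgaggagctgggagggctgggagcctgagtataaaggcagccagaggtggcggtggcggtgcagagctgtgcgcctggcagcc
CTTTGA occurred 2 times in the Dkk1 window and 0 times in the windows of the pair. It occurred in 13.8% of the 32851 mouse promoter windows of that length. TGGGAA occurred 3 times at the second start of Gucy1a1 and 1 time in Gucy1b1, and 21.6% of all windows held it. The CArG box, bound by serum response factor in smooth muscle genes, was in none of the 4 windows and in 1.47% of all windows. These are letter matches and not evidence of binding. The RefSeq starts differ from the GENCODE ones. By GENCODE positions the window of the second Gucy1a1 start lies inside the gene. The first Gucy1a1 window and the Dkk1 window overlap their genes in part. Of 4 genes looked up, 3 matched the promoter table and Heyl did not.

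Heyl is a transcriptional repressor that Notch signalling switches on in developing mural cells. It had 5.94, 5.74 and 6.22 log2 CPM at SD E13.5 and 4.41, 4.71 and 5.01 log2 CPM at SD E12.5. Its rise of 1.26 ± 0.20 log2 (adjusted p = 0.0123) stood beside one of 1.40 log2 in wild-type (adjusted p = 0.0012), a difference of -0.15 log2 (95% interval -0.74 to 0.45). Heyl was the gene that kept its call under the most alternatives, 14 of 18. Of 15 measured Notch genes it was the single one called in SD (2 rose in wild-type), and 9 of the 15 had positive changes. Hey2, a relative of Heyl, had 4.28, 4.46 and 4.88 log2 CPM at SD E13.5 and 3.74, 3.34 and 4.18 log2 CPM at SD E12.5, with an adjusted p of 0.058, and 0.0137 with the block.

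**Figure D1:**
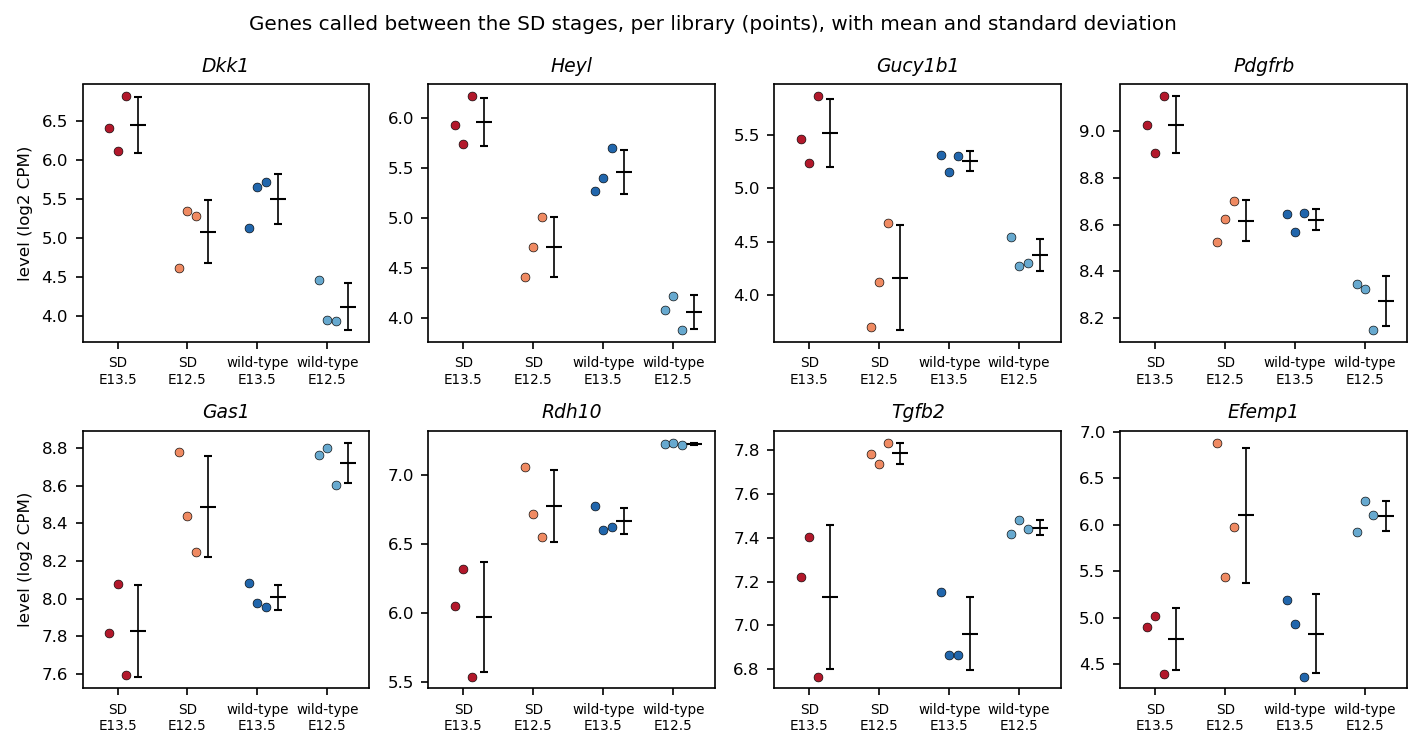
Level in log2 CPM of 4 genes that rose and 4 that fell between SD E13.5 and SD E12.5, for the 3 libraries of each group (points), with the mean and standard deviation beside them, and the same in C57BL/6 wild-type. In each panel the 3 SD E13.5 points lie apart from the 3 SD E12.5 points, as the 3 wild-type E13.5 points do from wild-type E12.5.

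Pdgfrb, the receptor by which mural cells answer PDGF-B, was the called member of the 18 mural and smooth muscle genes. It had 9.03, 8.91 and 9.15 log2 CPM at SD E13.5 and 8.53, 8.62 and 8.70 log2 CPM at SD E12.5. The rise was small, 0.41 ± 0.09 log2 (adjusted p = 0.0434), and wild-type rose by 0.35 log2 (adjusted p = 0.0284). Of the 18 members, 10 had positive changes in SD and 8 had negative ones. Among its contractile genes, Acta2, smooth muscle actin, had a change of -0.47 log2 and Tagln, transgelin, of -0.98 log2. Neither passed in SD, and wild-type fell by 1.14 and 1.57 log2. In the list as a whole, 3 members rose and 4 fell in wild-type, and the median change was 0.07 log2 in SD and -0.08 log2 in wild-type. Abcc9, a subunit of the ATP-sensitive potassium channel of pericytes, had 6.23, 6.13 and 6.24 log2 CPM at SD E13.5 and 4.34, 5.55 and 5.65 log2 CPM at SD E12.5 and was called with the block and not without it (adjusted p = 0.0593 without it and 0.0253 with it).

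Among other rises, Mgp, which inhibits calcification of matrix, had 7.11, 6.46 and 7.36 log2 CPM at SD E13.5 and 5.92, 6.00 and 6.42 log2 CPM at SD E12.5. It rose by 0.87 ± 0.18 log2 (adjusted p = 0.0421). Rerg, a small Ras-like GTPase, had 4.29, 4.23 and 4.71 log2 CPM at SD E13.5 and 3.12, 3.56 and 3.61 log2 CPM at SD E12.5. It rose by 0.98 ± 0.21 log2 (adjusted p = 0.0425). Both rose in C57BL/6 wild-type as well, by 0.88 and 1.16 log2, and in SO, by 1.04 and 1.07 log2. In CD1 wild-type Mgp had a change of -0.44 log2 (adjusted p = 0.168) and Rerg of 0.35 log2 (adjusted p = 0.351). Neither passed in CD1. The remaining rises were smaller. Cenpn, a centromere protein, rose by 0.45 log2 (adjusted p = 0.0421) and Ncaph, a condensin subunit, by 0.39 log2 (adjusted p = 0.0252), Ncaph being named after its values were seen. Raph1, lamellipodin, which guides actin at the leading edge, rose by 0.54 log2 (adjusted p = 0.043), with a near-identical copy, Gm49238, that could share its reads. Dnajc3, a co-chaperone of the endoplasmic reticulum, had 6.86, 6.83 and 6.86 log2 CPM at SD E13.5 and 6.14, 6.36 and 6.45 log2 CPM at SD E12.5 (0.53 log2, adjusted p = 0.0331). In C57BL/6 wild-type Cenpn rose by 0.50 log2 (adjusted p = 0.00625). Raph1, Dnajc3 and Ncaph did not pass there, at 0.31, 0.10 and 0.04 log2 (adjusted p of 0.127, 0.653 and 0.801).

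Zeb2 is a zinc-finger repressor of the E-box and a member of the list of medullary stroma markers. Like Raph1, Dnajc3 and Ncaph, it was a riser with no call in wild-type C57BL/6. It was the 1 called member of 10 in that list, of which 5 had positive and 5 negative changes with a median of 0.01 log2. It had 7.31, 7.30 and 7.56 log2 CPM at SD E13.5 and 6.90, 6.71 and 6.79 log2 CPM at SD E12.5, a rise of 0.59 ± 0.10 log2 (adjusted p = 0.0194). In wild-type it had 7.49, 7.25 and 7.40 log2 CPM at E13.5 and 7.59, 7.61 and 7.33 log2 CPM at E12.5, a change of -0.13 log2 (adjusted p = 0.524). In CD1 wild-type stroma it was called the other way and fell by 0.56 log2 (adjusted p = 0.00296). The SD E12.5 libraries were the lowest of the 12 of C57BL/6. Zeb2 overlaps the antisense gene Zeb2os, whose reads cannot be told from its own without a stated strand.

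The 26 falls are given by the known role of each gene, beginning with signalling. Gas1, a co-receptor for Hedgehog ligands, had 7.82, 8.08 and 7.59 log2 CPM at SD E13.5 and 8.78, 8.44 and 8.25 log2 CPM at SD E12.5. It fell by 0.66 ± 0.11 log2 (adjusted p = 0.0189), and by 0.72 log2 in wild-type (adjusted p = 0.00168). It was the called member of 11 Hedgehog genes, while Ptch1 and Gli1, targets of the pathway, had changes of 0.26 and 0.19 log2 that did not pass. Rdh10, which makes retinaldehyde in the first step of retinoic acid synthesis, had 6.05, 6.32 and 5.54 log2 CPM at SD E13.5 and 7.06, 6.72 and 6.55 log2 CPM at SD E12.5. It fell by 0.80 ± 0.15 log2 (adjusted p = 0.022). Aldh1a2, which makes retinoic acid itself, had a change of 0.10 log2 (adjusted p = 0.901), and of 16 measured retinoic acid genes 0 rose and 1 fell in SD, against 2 and 2 in wild-type. Crabp1, a retinoic acid carrier, had 8.92, 8.79 and 8.75 log2 CPM at SD E13.5 and 9.67, 9.23 and 9.32 log2 CPM at SD E12.5, called with the block and not without it (adjusted p = 0.0607 without it and 0.0346 with it). Tgfb2, a ligand of the TGF-beta family, had 7.22, 7.41 and 6.77 log2 CPM at SD E13.5 and 7.78, 7.74 and 7.84 log2 CPM at SD E12.5. It fell by 0.66 ± 0.13 log2 (adjusted p = 0.0316), was the called member of 27 TGF-beta and BMP genes in SD, and was with Efemp1 called in the same direction in all 3 other stage comparisons, those of wild-type C57BL/6, CD1 and SO.

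Efemp1, the matrix protein fibulin-3, had 4.90, 5.01 and 4.40 log2 CPM at SD E13.5 and 6.88, 5.44 and 5.98 log2 CPM at SD E12.5. It fell by 1.33 ± 0.26 log2 (adjusted p = 0.0321), and by 1.26 log2 in wild-type (adjusted p = 0.0105). Sulf1, which trims sulphate from heparan chains outside the cell, had 5.43, 6.23 and 5.26 log2 CPM at SD E13.5 and 6.81, 6.51 and 7.13 log2 CPM at SD E12.5 (-1.18 log2, adjusted p = 0.043). In both, the E13.5 libraries lay wholly below the E12.5 libraries. Mmp11, a metalloproteinase of stroma, had 6.41, 6.37 and 6.09 log2 CPM at SD E13.5 and 7.24, 6.80 and 6.95 log2 CPM at SD E12.5. It fell by 0.70 ± 0.12 log2 (adjusted p = 0.0189), and Chchd10 overlaps its exons on the other strand. Its wild-type change was -0.20 log2 (adjusted p = 0.379). Adamts17, a secreted metalloproteinase, had 3.48, 4.25 and 3.89 log2 CPM at SD E13.5 and 5.03, 4.60 and 4.76 log2 CPM at SD E12.5. It fell by 0.92 ± 0.18 log2 (adjusted p = 0.0316), where wild-type C57BL/6 had a change of 0.00 log2 (adjusted p = 0.995), CD1 fell by 0.98 log2 (adjusted p = 0.00296) and SO fell by 1.32 log2 (adjusted p = 0.000185). Of 36 measured matrix genes in the list, 0 passed in SD in either direction and 4 rose in wild-type.

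Other called falls were of genes best known from neurons. Grin3a, a subunit of NMDA receptors, had 2.86, 3.38 and 2.76 log2 CPM at SD E13.5 and 4.44, 3.84 and 4.35 log2 CPM at SD E12.5, and fell by 1.21 log2 (adjusted p = 0.0348). Ntrk2, the receptor of BDNF, had 4.33, 4.25 and 4.27 log2 CPM at SD E13.5 and 5.47, 4.81 and 5.55 log2 CPM at SD E12.5, and fell by 0.99 log2 (adjusted p = 0.0207). Epha4, an ephrin receptor, fell by 0.69 log2 (adjusted p = 0.0425). It was the called member of 30 guidance genes in SD, of which 2 rose and 7 fell in wild-type. Tubb2b, a beta-tubulin, fell by 0.76 log2 (adjusted p = 0.0316), with copies Tubb2a and Tubb2a-ps2 that are near-identical over part of the transcript and could share its reads. Chosen after their values were seen, Sema6c, a transmembrane semaphorin (-0.67 log2), Plppr3, a membrane protein of neurites (-0.66 log2), and Nrep (-0.38 log2) were called too. The summed CPM of 13 neural crest and neuron markers was 22.9 to 49.2 at SD E13.5 and 39.6 to 55.2 at SD E12.5, which overlapped.

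The other falls were Pik3ip1, an inhibitor of PI3 kinase, at 2.57, 2.65 and 2.32 log2 CPM at SD E13.5 and 3.60, 3.42 and 3.88 log2 CPM at SD E12.5 (-1.12 log2, adjusted p = 0.027), and Pkia, an inhibitor of protein kinase A (-0.73 log2, adjusted p = 0.0267). Outside the naming rule and chosen after their values were seen were Frmd4b, a scaffold with a FERM domain (-0.74 log2), Mylip, a ubiquitin ligase for the LDL receptor (-0.58 log2), and the unnamed loci Gm8615, D430019H16Rik and Tmem181c-ps. Gm8615 is a processed pseudogene with the near-identical copy Gnpda1, and had 19, 9 and 25 reads at SD E13.5 against 109, 34 and 51 at SD E12.5. Tmem181c-ps is a pseudogene with near-identical copies, Tmem181a and Tmem181b-ps. It had 2, 1 and 0 reads at SD E13.5 against 28, 10 and 3 at SD E12.5. These copies could share their reads. Pitx1, a homeodomain factor of the hindlimb, was also outside the naming rule at very low counts. It had 2, 2 and 0 reads at SD E13.5 against 33, 9 and 18 reads at SD E12.5. Its fitted change of -3.22 log2 (adjusted p = 0.0189) depends on the 0.5 reads added to each count. Among the genes whose positions were looked up, Plppr3, Gas1, Tgfb2, Pik3ip1, Axin2, Lef1, Pitx1, Ccnd1, Abcc9, Cx3cr1, Csf1r, Ccna2, Igfbp7 and Penk also share exon positions with genes on the other strand, so their reads may include those of the partner.

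**Figure D2:**
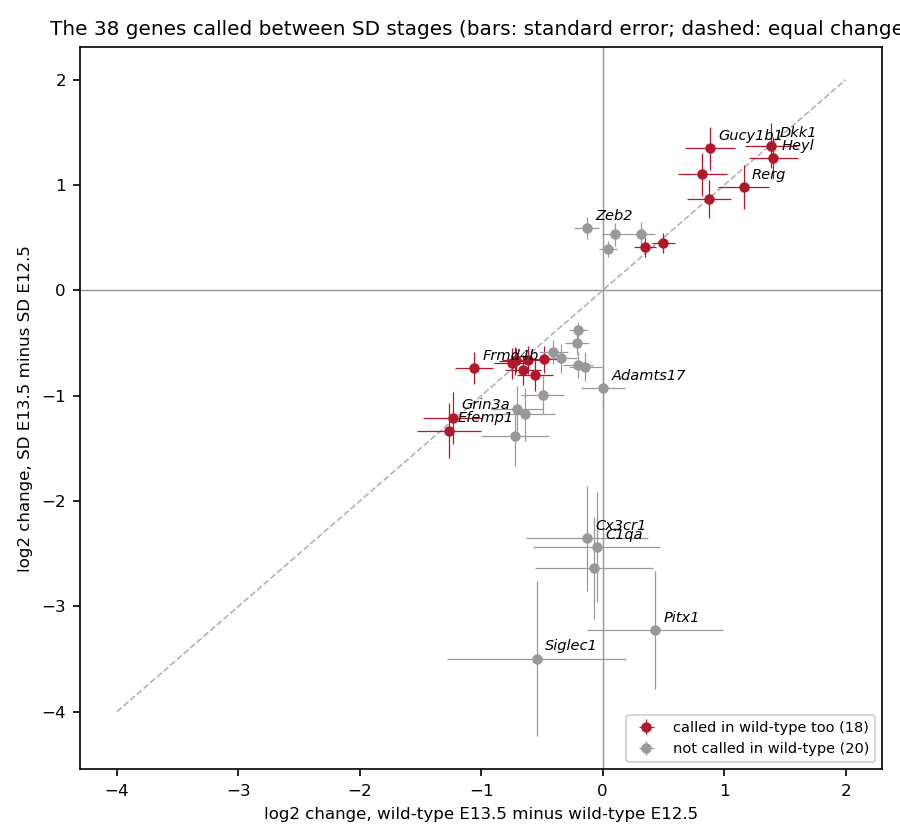
Log2 change between stages in SD (vertical) against that in C57BL/6 wild-type (horizontal) for the 38 genes called in SD, with standard errors; the dashed line marks equal changes. Of these 38, 18 were called in wild-type (red) and 20 were not (grey), and Zeb2, Adamts17, Pitx1 and the macrophage genes lie off the line.

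Macrophage transcripts were lower at E13.5 in SD, though few passed the test. All 17 measured members of the macrophage and immune list had negative changes, with a median of -1.83 log2, beside -0.003 log2 over all genes. Of them 2 were called lower, beside 0.188% of all genes, and 14 had E13.5 libraries wholly below the E12.5 libraries, beside 8.93% of all genes. Their summed level was 21.98, 61.2 and 50.6 CPM at SD E13.5 and 140, 101 and 239 CPM at SD E12.5, with no overlap. Cx3cr1, the fractalkine receptor, had 15, 31 and 21 reads at SD E13.5 and 271, 75 and 158 reads at SD E12.5, and fell by 2.36 ± 0.50 log2 (adjusted p = 0.0425). C1qa, a chain of complement C1q, had 7, 32 and 14 reads at SD E13.5 and 171, 62 and 120 reads at SD E12.5, and fell by 2.44 ± 0.52 log2 (adjusted p = 0.0434). Siglec1, a sialic acid receptor of macrophages named outside the rule, had 1, 2 and 0 reads at SD E13.5 and 37, 8 and 19 reads at SD E12.5. Cx3cr1 and C1qa kept their calls in 7 of 18 alternatives. The fit with list levels as covariates says nothing about these 2 genes, since they are members of the macrophage list. In C57BL/6 wild-type the signs were mixed: 10 members had positive changes and 7 negative, and the median was 0.06 log2. The sums there were 393, 242 and 245 CPM at E13.5 and 139, 158 and 910 CPM at E12.5. In CD1 wild-type the sums were lower at E13.5 without overlap, at 553, 396 and 434 CPM against 993, 1026 and 985 CPM at E12.5. Cx3cr1 and C1qa changed by -1.22 and -1.47 log2 in CD1, and neither passed. In SO the sums overlapped, at 1370, 1473 and 586 CPM at E13.5 and 1012, 699 and 669 CPM at E12.5. Fewer macrophages and less RNA in each of them cannot be told apart in sorted bulk RNA. The part of these transcripts in the other stage changes was not tested apart from the covariate fit.

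Genes of the S-phase and G2/M lists had higher mean levels at SD E13.5, and 0 of them passed. Cenpn and Ncaph, called above, are in neither list. Of 20 S-phase genes, all had positive changes with a median of 0.21 log2, 14 had E13.5 libraries wholly above the E12.5 libraries, beside 6.93% of all genes, and 0 were called (in wild-type 3 rose). Their sums were 4313, 4040 and 4221 CPM at SD E13.5 and 3515, 3632 and 3721 CPM at SD E12.5. Cdc6, which loads the replicative helicase, had 6.14, 6.05 and 6.09 log2 CPM at SD E13.5 and 5.72, 5.65 and 5.80 log2 CPM at SD E12.5 (0.37 log2, adjusted p = 0.067). All 22 G2/M genes had positive changes as well, with a median of 0.22 log2 and 0 called, against 4 rises in wild-type. Of these 5 did not overlap between stages, and the sums of 3899, 4710 and 4696 CPM at SD E13.5 and 3317, 4177 and 3925 CPM at SD E12.5 overlapped. With the block, Pcna, Pola1 and Ccna2 were called and rose. Of 12 insulin-like growth factor genes 0 passed in SD and 4 rose in wild-type. Igfbp6, a secreted binder of these factors chosen after its values were seen, was at 3.96, 3.48 and 5.26 log2 CPM in SD E13.5 and 2.12, 3.23 and 4.78 log2 CPM in SD E12.5, and at 3.88, 3.94 and 4.32 log2 CPM in wild-type E13.5 and -2.76, -0.20 and 1.45 log2 CPM in wild-type E12.5. Its change was 0.86 log2 in SD (adjusted p = 0.804) and 4.55 log2 in wild-type (adjusted p = 0.00697), but the difference between these changes did not pass (adjusted p = 0.89).

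**Figure D3:**
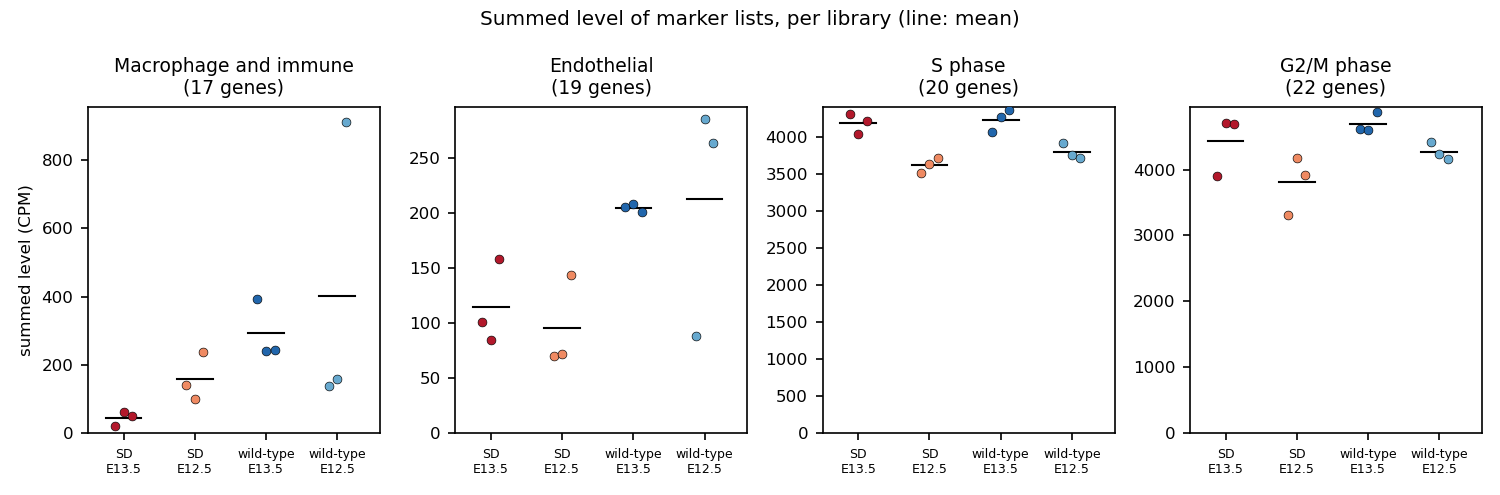
Summed CPM of the macrophage, endothelial, S-phase and G2/M lists for each library (points) with the group mean (line), for SD and C57BL/6 wild-type at E13.5 and E12.5. Macrophage sums are 21.98 to 61.2 CPM at SD E13.5 and 101 to 239 CPM at SD E12.5, while S-phase sums are 4040 to 4313 CPM at SD E13.5 and 3515 to 3721 CPM at SD E12.5.

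Stage changes of wild-type stroma were set beside those of SD, with no library in common but with a pooled estimate of each gene's spread. A gene with a small pooled spread is called more easily in every comparison. The shared calls below are therefore not independent. In C57BL/6 wild-type 287 genes were higher and 259 lower at E13.5 (2.08% and 1.88% of all genes). There 50.2% of all genes had positive changes and 49.8% negative ones. Of the 12 genes that rose in SD, 11 had the same sign in wild-type and 8 were called there (66.7% of the SD list and 2.79% of the wild-type list). Of the 26 that fell in SD, 24 had the same sign and 10 were called (38.5% and 3.86%). In wild-type 0 of the 38 were called in the opposite direction. In CD1 wild-type 9 of the 12 rises and 25 of the 26 falls had the same sign, and 2 and 15 were called. Over all genes 2.42% rose and 3% fell in CD1, and 50.7% had positive changes. In SO 10 and 16 had the same sign, and 4 and 7 were called. Over all genes 3.01% rose and 4.09% fell in SO, and 49.7% had positive changes. Zeb2 in CD1 and Pdgfrb in SO were called the opposite way. The number of the 3 other stage comparisons that called a gene the same way was 0 for 11 genes, 1 for 10, 2 for 15 and 3 for 2.

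Conversely, genes called in both wild-type strains were looked up in SD, whose libraries entered that choice only through the pooled estimate of the spread. Of 112 genes called higher at E13.5 in both strains, 102 (91.1%) had a positive change in SD, beside 49.2% of all genes, and the median change was 0.20 log2 in SD, against 0.59 log2 in wild-type C57BL/6, where the list was chosen. Of 137 called lower in both, 133 (97.1%) were negative in SD with a median of -0.42 log2, against -0.62 log2 in wild-type. In SD 2 of the 112 were called higher, beside 0.0869% of all genes, and 8 of the 137 lower, beside 0.188%. The mean log2 CPM of the first set minus that of the second was 0.94, 0.70 and 1.30 at SD E13.5 and -0.47, 0.30 and 0.63 at SD E12.5, and 1.03, 1.15 and 1.40 at wild-type E13.5 and -0.66, -0.61 and -0.17 at wild-type E12.5. Replicates 2 and 3 of SD E12.5 thus lay above all 3 wild-type E12.5 libraries, and the spread within SD E12.5 was wide. Members of the first set with SD changes near 0, chosen after their values were seen, were Mmp15, a membrane-bound metalloproteinase, Pdpn, podoplanin, and Cldn11, a tight junction protein, at -0.06, -0.01 and -0.16 log2 in SD, where wild-type rose by 0.85, 0.83 and 0.99 log2.

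**Figure D4:**
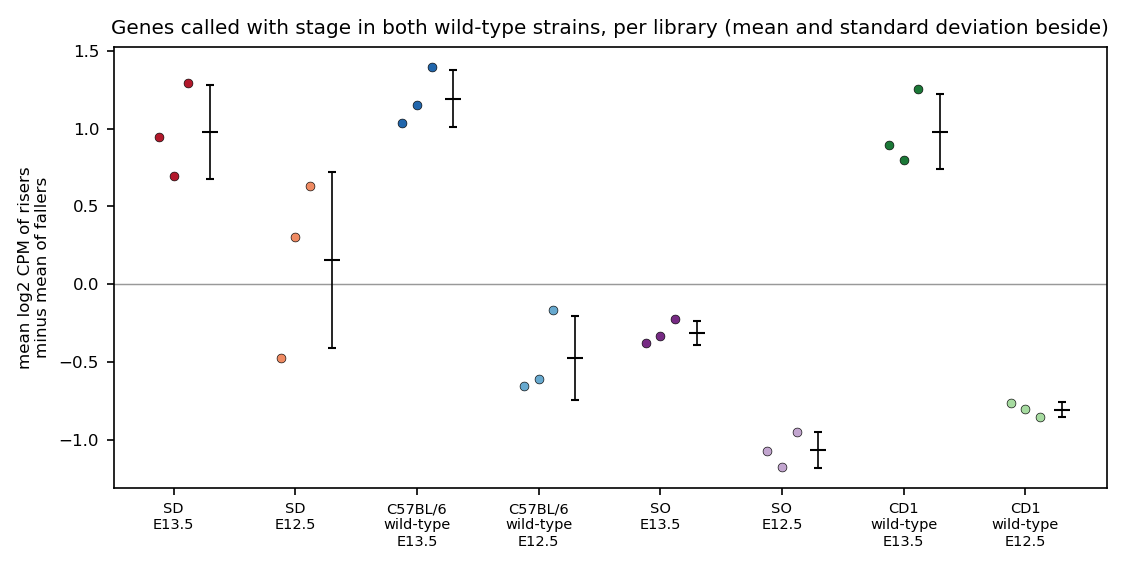
For each of the 24 libraries, the mean log2 CPM of 112 genes called higher minus that of 137 called lower with stage in both wild-type strains (points), with group mean and standard deviation; the wild-type groups chose these genes. The SD E13.5 libraries lie at 0.70 to 1.30 and the SD E12.5 libraries at -0.47 to 0.63.

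The difference itself, the stage change in SD minus that in C57BL/6 wild-type, was called for 0 genes in limma (0% of 13803), with 753 at an unadjusted p under 0.05 and a smallest adjusted p of 0.292. With voom weights it was called for 0 genes too (647 unadjusted). Genes that passed in 1 genotype are therefore not shown to differ between the genotypes. Chosen after their values were seen, the smallest p belonged to Zeb2, at 0.72 log2 (95% interval 0.42 to 1.03), Mmp15, at -0.92 log2 (-1.29 to -0.54), and Cntnap5b, at 3.62 log2 (2.19 to 5.05), each with an adjusted p of 0.292. Mmp15 had 4.78, 4.80 and 4.85 log2 CPM at SD E13.5 and 4.77, 5.00 and 4.86 log2 CPM at SD E12.5, while wild-type had 6.28, 6.25 and 6.23 log2 CPM at E13.5 and 5.33, 5.35 and 5.52 log2 CPM at E12.5. The count depended on 1 wild-type library. Without wild-type E12.5 replicate 3, the one with liver and macrophage transcripts, 23 genes were called, 3 with a higher change in SD (Zeb2, Asb4 and Plxna2) and 20 with a lower one. Among these 20 were Cx3cr1, C1qa, Csf1r, Ptprc, Mrc1, Fcer1g and F13a1, all of the macrophage list. Their changes were lower in SD by 3.11, 3.17, 3.04, 3.63, 2.74, 3.26 and 2.85 log2. P2ry13, which had the smallest p, Msr1 and Fcrls are outside that list and were called lower as well. The rest of the 20 were not sorted by cell type. Mmp15 and Cldn11 were called too, at -0.98 and -1.43 log2. Wild-type macrophage sums without that library were 139 and 158 CPM at E12.5, so the calls for macrophage genes rest on which wild-type libraries are kept.

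The remaining lists had 0 calls in SD. Of 19 endothelial genes 14 had negative changes with a median of -0.57 log2, although their summed level was 101, 84.5 and 158 CPM at SD E13.5 and 70.5, 72.0 and 144 CPM at SD E12.5, so median and sum differ in sign. In wild-type the endothelial sums were 205, 208 and 201 CPM at E13.5 and 88.3, 285 and 263 CPM at E12.5. Of 16 GDNF and FGF genes, signals between stroma and epithelium, 11 had positive changes (median 0.24 log2), and 3 rose in wild-type. Gdnf itself, the ligand that makes the ureteric bud branch, had a change of 0.48 log2 (adjusted p = 0.379), where wild-type rose by 1.00 log2 (adjusted p = 0.0132). Of 32 Hox genes, which give position along the body, 22 had negative changes (median -0.06 log2). The 22 immediate early and stress genes had a median of 0.20 log2 in SD and 0.43 log2 in wild-type, where 3 rose. Markers of nephron progenitors summed to 557 to 710 CPM at SD E13.5 and 588 to 681 CPM at SD E12.5, and liver transcripts to 3.98 to 7.48 CPM and 7.88 to 17.97 CPM.

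**Figure D5:**
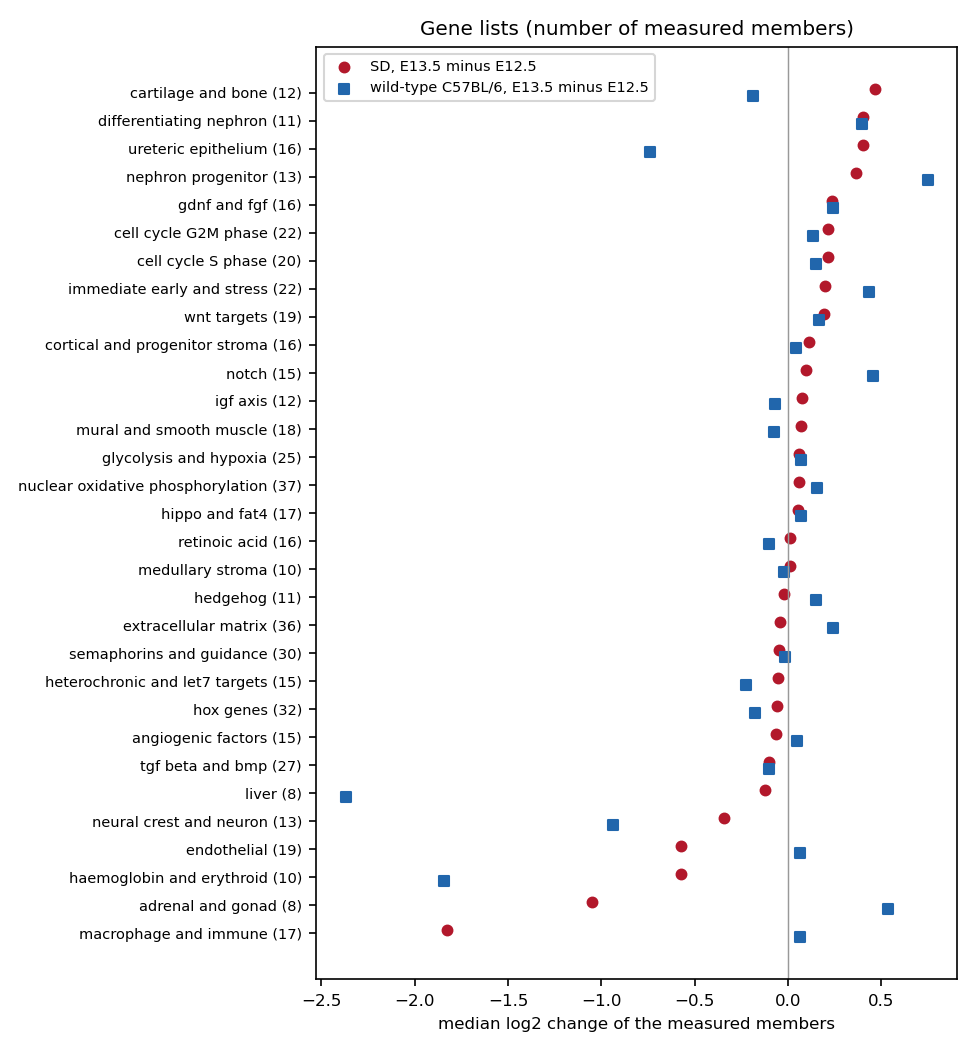
Median log2 change between stages over the measured members of 31 gene lists in SD (circles) and C57BL/6 wild-type (squares), ordered by the SD value. The macrophage list has the lowest SD median, -1.83 log2, where its wild-type median is 0.06 log2.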

How the data were processed

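RNA-seq of sorted embryonic kidney stroma gave 24 libraries in 8 groups of 3, mapped by column name, with 0 columns left out. The deposited values are log2 CPM with 0.5 reads added and TMM-scaled library sizes, as the file's name and its values show. The submitters' processing notes name HISAT2, HTSeq, limma and mm10 without versions. Depth follows from the whole reads that the values imply (100% within 0.1 of a whole number). All 13803 genes exceeded 0 log2 CPM in 3 or more libraries, so the filter removed 0.

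limma 3.58.1 (R 4.3.3) fitted 8 group means, which left 16 residual degrees of freedom, and moderated the variances along their trend with mean level, with Benjamini-Hochberg adjustment over all genes, and a gene was called at an adjusted p under 0.05. The difference of the SD and C57BL/6 wild-type stage changes was tested as an interaction. Deviations of same-numbered SD libraries correlated at 0.21, 0.21 and 0.28, and those of wild-type at -0.12, 0.05 and -0.04. The numbers come from the labels, which state no pairing, so a pairing of the SD stages is not established. The fit with the block for the SD libraries alone was chosen after seeing the data.

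Named genes were called genes with separated stages, a given name and a mean above 1 log2 CPM over the SD libraries (the 10 largest changes and 5 smallest p each way), called members of 33 gene lists, and Ctnnb1, Foxd1, Axin2 and Lef1; others are said to be chosen after their values were seen. The members and lists were chosen with earlier results of these data known. Positions come from GENCODE M21 (GRCm38), near-identical copies from BLAST 2.17.0 and promoters from RefSeq. Alternatives changed the libraries, block, weights, scaling, added reads, filter, trend and covariates, and left out each library. The steps were tested on simulated data.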

Additional observations from a re-analysis of the deposited data

How the results depend on the processing

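The SD stage count was the least stable. Of 38 genes called, 1 was called with the 12 C57BL/6 libraries alone, 0 with the 2 SD groups alone (1355 at an unadjusted p under 0.05) and 0 without the mean-variance trend (1483 unadjusted), against 167 with library quality weights. Leaving out one library gave 0 to 154. The replicate block for the SD libraries gave 156, and the block nested in all genotypes gave 48, 24 of them shared. For C57BL/6 wild-type, 546 became 262 with 12 libraries, 1048 with quality weights, 298 without the trend and 126 with the covariates, and 83 to 605 when one library was left out. The difference of stage changes stayed at 0 under every alternative except the covariates, which called 4 (Abca1, Glud1, Cpn1 and Cntnap5b), and leaving out one library, which gave 0 to 23. The stage change of Axin2 in SD reversed to -0.089 log2 (adjusted p = 0.908) with the covariates and ranged from -0.058 to 0.28 log2 when one library was left out, negative without SD E12.5 replicate 3 (adjusted p = 0.933). The cause of these shifts was not tested. The voom weights (27), another scaling (41), 2 added reads (35), the stricter filter (48) and no filter (38) moved the SD count by less than 1.5 times; voom turned the split to 16 higher and 11 lower. The planned tests with edgeR and DESeq2 on recovered reads are not used here, since the values are deposited on a log scale. Depth limits genes such as Pitx1 and Siglec1, which rest on few reads.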

Other observations

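With the replicate block for the SD libraries, further members of the lists were called. Angpt2, an angiopoietin that acts on blood vessels, rose with an adjusted p of 0.00707 in limma, against 0.17 without the block; over all genes 0.377% were called higher and 0.753% lower in that fit. Igfbp7, a secreted binder of insulin-like growth factors, rose at 0.0113 and Penk, the opioid precursor proenkephalin and a medullary stroma marker, at 0.018. Without the block their adjusted p were 0.0666 and 0.127. Alx1, a homeodomain factor of the medullary list, was called the other way at -1.19 log2 (adjusted p = 0.032 with the block and 0.435 without it). Nrp1, a semaphorin and VEGF receptor, rose at 0.0247, while Epha7, an ephrin receptor, fell at 0.0116. Without the block Nrp1 had 0.0607 and Epha7 had 0.0513. Of the macrophage list, Csf1r, C1qb and Ctss fell in addition to Cx3cr1 and C1qa, so 5 of 17 members were called. Without the block Csf1r, C1qb and Ctss had adjusted p of 0.067, 0.0854 and 0.0836. These genes were chosen after their values were seen.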
